A study of Homo sapiens with 8 samples.

Results

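The genes described here are 10 genes of cell death: the 4 receptors of TRAIL (TNFRSF10A, TNFRSF10B, TNFRSF10C and TNFRSF10D), the ligand TRAIL itself (TNFSF10), the death receptor FAS, the membrane protein gene PERP, and the BCL2-family genes BBC3, PMAIP1 and MCL1. They were chosen by name out of 43317 genes on a two-colour Agilent expression array with 60-base probes, with their ratios on these arrays already known, so every value below is a description and no test was made. All 10 were found, by 14 probes. Of the genes, 8 had 1 probe, while FAS and TNFSF10 had 3 each, and the symbols of all 14 probes matched RefSeq by transcript.

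The study hybridised 8 arrays, each with Cy3-labelled RNA of mock cells, which the labels give as not transfected, and Cy5-labelled RNA of treated cells. PC3, a prostate cancer line, was given bisamide (CCT251236), a small molecule described as an inhibitor of pirin and of the HSF1 stress pathway, for 24 h on one array and 48 h on another. PC3 was also transfected with miR-125b-1-3p, the prostate cancer line C4-2 with miR-199-3p, the renal cancer line 786-O with miR-532-5p or miR-532-3p, and the bladder cancer line T24 with miR-140-5p or miR-140-3p. Each group held 1 array, no dyes were swapped, and all lines are established cell lines grown in culture. The time of the miRNA arrays and the dose of bisamide on these arrays are not given in the sources used here.

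TRAIL is a ligand of the tumour necrosis factor family that can trigger apoptosis. TNFRSF10A and TNFRSF10B (death receptors DR4 and DR5) carry a death domain inside the cell and pass the signal to caspases, whereas TNFRSF10C and TNFRSF10D are decoy receptors, the former without a death domain and the latter with a truncated one. Inside the cell, BBC3 (PUMA) and PMAIP1 (NOXA) are BH3-only proteins that promote death at the mitochondrion, and MCL1 is an antiapoptotic member of the same family that PMAIP1 binds. PERP is a tetraspan membrane protein that serves as a p53 effector and as a component of desmosomes, and FAS, BBC3, PMAIP1 and TNFRSF10B are also known p53 targets.

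The 6 transfected miRNA strands are shown because each defines 1 array, with the seed (bases 2 to 8), which pairs with target mRNAs, in capitals. The sequences are those of RefSeq, and miR-199a-3p and miR-199b-3p, to which the label miR-199-3p corresponds, are identical.
miR-199-3p: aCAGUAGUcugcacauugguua
miR-125b-1-3p: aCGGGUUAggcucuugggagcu
miR-532-5p: cAUGCCUUgaguguaggaccgu
miR-532-3p: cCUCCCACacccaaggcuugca
miR-140-5p: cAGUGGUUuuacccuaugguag
miR-140-3p: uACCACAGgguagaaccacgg

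No seed was shared between any pair of the 6 strands. The strand of miR-532 on the array with the lowest PERP ratio pairs with GUGGGAG, and the strand of miR-140 on the array with the highest T24 ratio of TNFRSF10D pairs with AACCACU. In the transcript sense, none of the 14 member probes held a match to the seed of any of the 6 strands, whereas the match to miR-532-3p was in 0.411% and that to miR-140-5p in 0.436% of the 58201 probes on the array. A probe covers 60 bases, so this describes only those windows.

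The labels of the lines were checked in the mock channels, in unnormalized signal. KLK3 read 13600, FOLH1 2340 and KLK2 992 in C4-2, and KLK3 stayed at background in the other lines (21.4 to 22.6). TMPRSS2 (286) was also highest in C4-2. The renal markers PAX8 (235 and 239) and PAX2 (112 and 124) were well above background in 786-O. EPAS1 read 608 and 630 there and 901 and 906 in T24, and CA9 was not well above background in any line. Of the epithelial and mesenchymal genes, CDH1 was highest in C4-2 (793), VIM lowest there (453, against 9120 to 17600 elsewhere), and KRT5 at background in all lines. In the cells labelled T24, however, the urothelial markers UPK2, UPK1B and GATA3 were not well above background on either array, while PAX8 read 390 and 423 and PAX2 551 and 619, above 786-O. Thus these urothelial markers were not detected there and 2 renal markers were, and "T24" below means the cells labelled so. The 3 PC3 mocks were not alike for every gene, since EPAS1 ran from 115 to 430 among them.

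The values are ratios of treated to mock signal on the log2 scale, after background correction and loess normalization, and a gene counted as measured when the scanner flagged both its channels as well above background. The 10 genes gave 64 measured ratios out of 80 possible, and 52 of these were below 0.5 in size. The spread of a ratio could be judged only within an array: 300 probes with 10 spots each had a median SD of 0.0389 to 0.0527, and the SD over all measured genes was 0.17 to 0.28.

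At a size of 1.5 in either direction, 1 ratio of the 10 genes qualified, that of PERP with miR-532-3p (1 of 9 measured members). Over all measured genes, the share past 1.5 in either direction was 0.149% on that array. On the other arrays no member was past 1.5, against 0.078% of genes with bisamide at 24 h and 0.0368% at 48 h, 0.0107% with the miRNA in PC3, 0.121% in C4-2, 0.102% with miR-532-5p in 786-O, and 0.142% and 0.0114% with the 5p and 3p strands in T24. Past 1.0, TNFRSF10D was added with miR-532-3p (2 of 9, against 0.641% of all genes) and with miR-140-5p (1 of 8, against 0.443%). No member was past 1.0 on the remaining arrays, where the shares of all genes were 0.197% (bisamide 24 h), 0.116% (48 h), 0.177% (the miRNA in PC3), 0.65% (C4-2), 0.804% (the 5p strand in 786-O) and 0.177% (the 3p strand in T24). Since the members were chosen on these ratios, nothing is read from their counts. The arrays limit the precision of all values: with 1 per group, no difference between treatments could be set against replicate error.

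**Figure D1:**
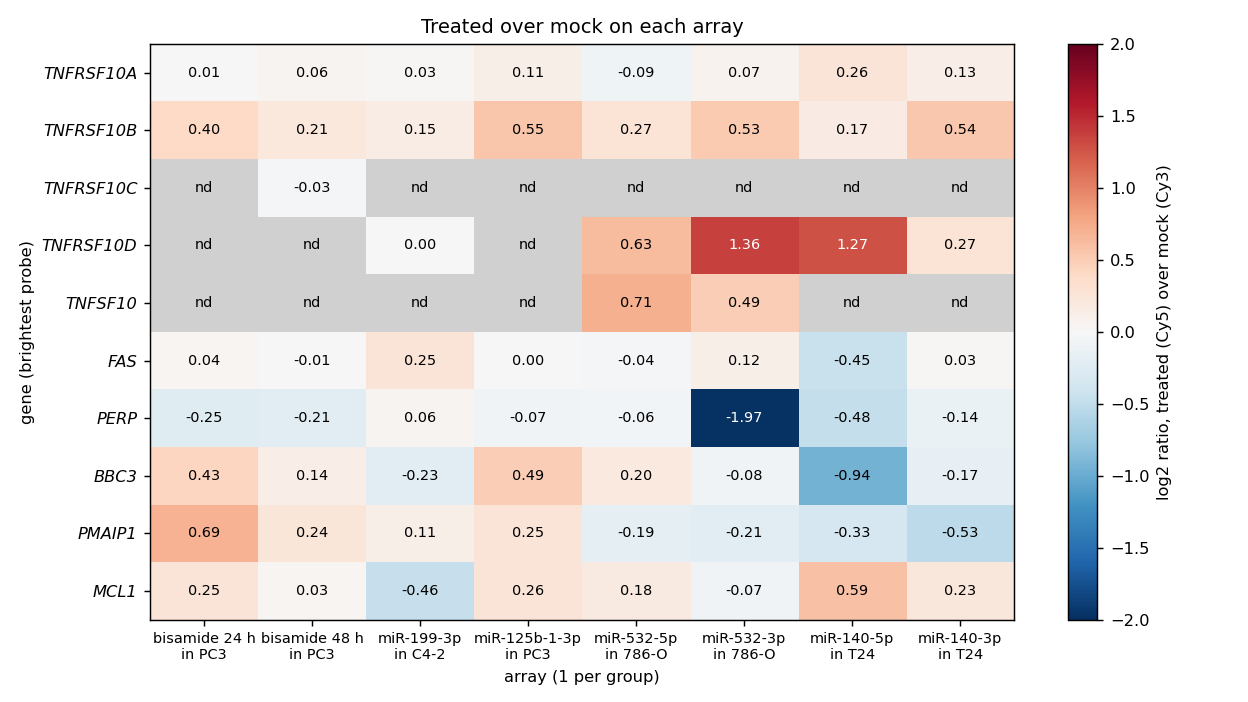
Log2 ratio of treated (Cy5) over mock (Cy3) RNA for each of the 10 genes (rows, brightest probe) on each of the 8 arrays (columns); grey cells marked nd were not well above background in both channels. PERP with miR-532-3p (−1.97) and TNFRSF10D with miR-532-3p (1.36) and miR-140-5p (1.27) stand out, and TNFSF10 was measured in 786-O alone.

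Among the receptors that signal, TNFRSF10B was measured on all 8 arrays and was higher in the treated channel on each. In PC3 its log2 ratio was 0.40 and 0.21 with bisamide (24 h and 48 h) and 0.55 with the miRNA, and in C4-2 it was 0.15. The 5p and 3p strands gave 0.27 and 0.53 in 786-O and 0.17 and 0.54 in T24. These are folds of 1.11 to 1.47. On the miR-140-3p array, 118 of 17533 genes had a higher ratio, and on the miR-125b-1-3p array 230 of 18693 did. Because the treated sample was always in Cy5, a dye effect of this single probe and a change in all treatments cannot be told apart. After its median over the arrays of the other lines was subtracted, the ratio ran from −0.25 to 0.29 and was above 0 on 4 of the 8 arrays. With median centring in place of loess it ran from 0.15 to 1.36.

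TNFRSF10A, the other receptor with a death domain, was within 0.13 of 0 on all arrays but that of miR-140-5p. It read 0.012 and 0.06 in PC3 with bisamide (24 h and 48 h), 0.11 in PC3 with the miRNA and 0.029 in C4-2. For the 5p and 3p strands it read −0.086 and 0.073 in 786-O and 0.26 and 0.13 in T24. The probe was dim, with mock signals of 38.7 to 79.6, and the offset used in background correction shrinks the ratios of dim probes. With miR-140-5p its ratio was 0.4 by the scanner's software and 0.63 with median centring.

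The decoy receptor TNFRSF10D was the member with the highest ratios. In the PC3 arrays neither channel was well above background (mock signals 21.4, 21.8 and 23.4, treated signals 17.7, 17.4 and 18.4), so no ratio is given for that line. In C4-2 the mock and treated signals were 239 and 354, and the log2 ratio was −0.0018. In 786-O the mock signals were 147 and 158, and the treated signals were 215 with miR-532-5p and 592 with miR-532-3p. The log2 ratios were 0.63 (1.55-fold) and 1.36 (2.56-fold), so the 786-O mocks lay close together and the treated channels apart. In T24 the mock signals were 177 and 186, against 737 for the 5p strand and 375 for the 3p strand. The T24 ratios were 1.27 (2.42-fold) and 0.27 (1.21-fold). Only HMOX1, which encodes the heme-degrading enzyme heme oxygenase, ranked above TNFRSF10D among 15442 genes with miR-532-3p, and 12 of 17624 genes ranked above it with miR-140-5p. Its neighbour TNFRSF10C, the decoy anchored by a lipid tail, was measured on 1 array alone, bisamide at 48 h in PC3, with a ratio of −0.032 at signals of 27.1 and 24.2. On the other arrays its mock signals of 19.9 to 24.6 were not well above background, and its treated signal was so on the other PC3 arrays alone (22.4 with bisamide at 24 h, 26.1 for the miRNA).

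The ligand gene TNFSF10 was measured in both channels in 786-O alone. Its brightest probe read 1530 and 1510 in the 786-O mocks and 2410 with miR-532-5p and 3270 with miR-532-3p, whereas it read 22 to 27.7 in all other mock channels. The log2 ratios were 0.71 (1.64-fold) and 0.49 (1.4-fold). With median centring they were 0.66 and 1.09, so the order of the strands turned. A second probe of the same transcript read 842 and 849 in the mocks and 1090 and 1400 in the treated channels. Its ratios of 0.48 and 0.19 had the same sign but were smaller. The third probe, which belongs to another transcript, was not well above background in any mock channel (20.1 to 22.9). In C4-2 and on the miR-125b-1-3p array the brightest probe was above background in Cy5 alone, at least 1.06-fold and 1.02-fold above mock, with signals of 27.1 and 28.5.

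FAS, the receptor of FAS ligand, was measured on all arrays and was furthest from 0 with miR-140-5p. The brightest probe gave 0.041 and −0.014 in PC3 with bisamide (24 h and 48 h), −0.0017 in PC3 with the miRNA and 0.25 in C4-2. The 5p and 3p strands gave −0.045 and 0.12 in 786-O and −0.45 and 0.025 in T24. A second probe, which overlaps the first on the genome, read −0.47 and 0.079 for these T24 strands. The third, dim probe (signals of 32.8 in mock and 25 in treated) read −0.2 and −0.045. All 3 probes were therefore lower with the 5p strand than with the 3p strand. With median centring the brightest probe was at −0.1 and 0.5 for these strands, and with the scanner's own ratio at −0.79 and −0.043. The size of the 5p value thus depended on the processing. With miR-199-3p, the first and second probes read 0.25 and 0.17.

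PERP was the member with the lowest ratio and the widest range. In PC3 its mock and treated signals were 1480 and 2290 with bisamide at 24 h, 1390 and 2210 at 48 h, and 1110 and 1830 with the miRNA, and in C4-2 they were 941 and 1600. In 786-O they were 439 and 374 for the 5p strand and 398 and 101 for the 3p strand, and in T24 825 and 992 for the 5p strand and 880 and 1450 for the 3p strand. The treated signal was thus below the mock signal in 786-O alone, and by far the more with miR-532-3p. The log2 ratios in the same order were −0.25, −0.21, −0.065, 0.06, −0.059, −1.97, −0.48 and −0.14. The signs of the small negative ratios outside 786-O depended on the processing. With median centring they ran from 0.22 to 0.65, and with the scanner's own ratio from −0.49 to −0.091. The lowest, with miR-140-5p, was at 0.22 with median centring, below the median of all measured genes there (0.35). With miR-532-3p PERP was 3.93-fold lower, and of 15442 measured genes only NF2, which encodes the tumour suppressor merlin, had a lower ratio. The value stayed below −1.5 under every processing tried, from −2.56 with the scanner's own ratio to −1.66 with median centring. PERP is read by 1 probe, on chromosome 6 (GRCh37 chr6:138412056-138412115, minus strand), so no second probe could be set beside it. The PC3 mock level of PERP was 9.97 or above on both bisamide arrays and 9.56 on the miR-125b-1-3p array (log2 scale), so 1 array makes most of their SD of 0.25.

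**Figure D2:**
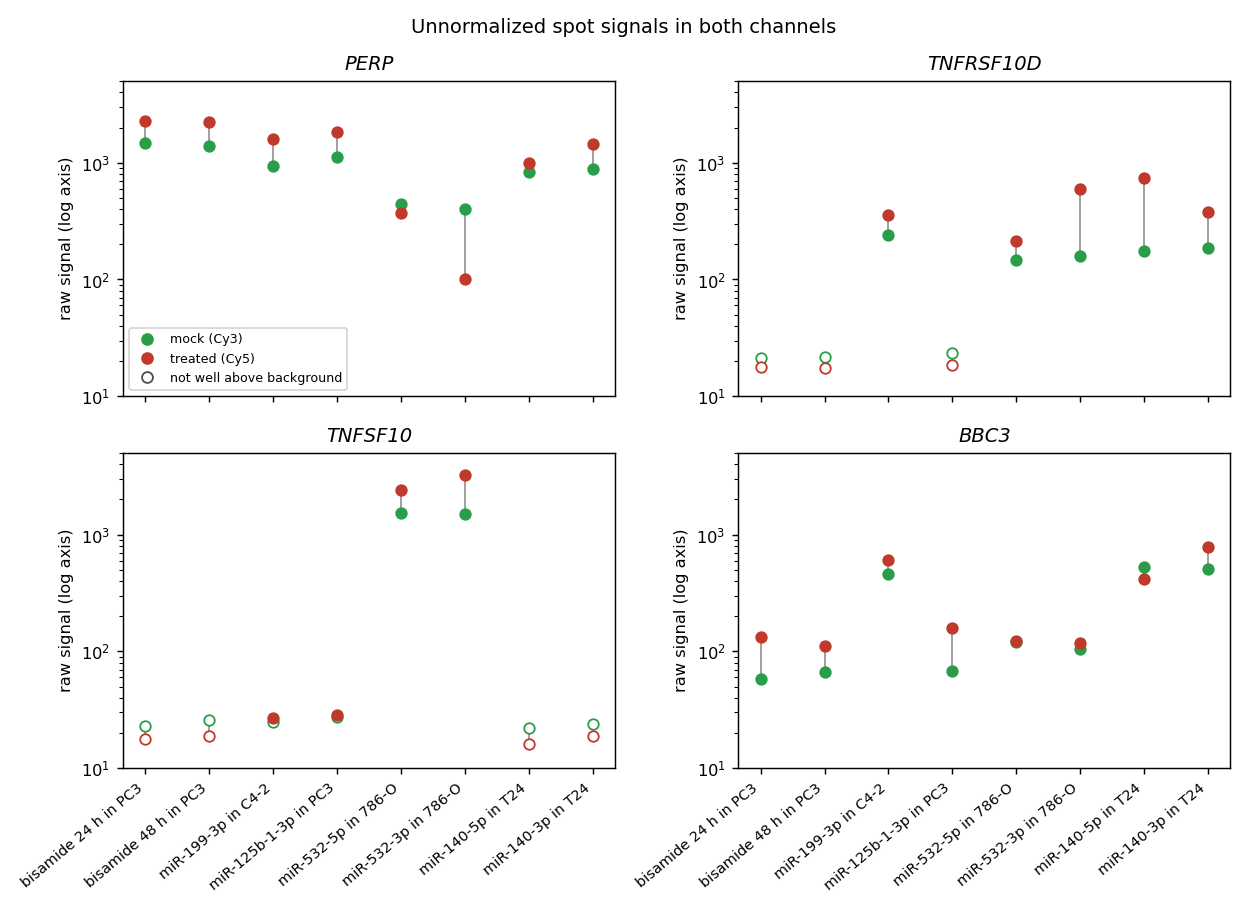
Unnormalized signal (log axis) of PERP, TNFRSF10D, TNFSF10 and BBC3 in the mock (green) and treated (red) channel of each array; open circles were not well above background and a line joins both channels of an array. PERP read 101 against 398 on the miR-532-3p array, TNFRSF10D read 592 against 158 there and 737 against 177 with miR-140-5p, and TNFSF10 was at 1510 and above in 786-O alone.

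BBC3 was above 0 on the 3 PC3 arrays and below 0 on both T24 arrays. The PC3 ratios were 0.43 and 0.14 with bisamide (24 h and 48 h) and 0.49 with the miRNA, and the C4-2 ratio was −0.23. For the 5p and 3p strands the ratios were 0.20 and −0.078 in 786-O and −0.94 and −0.17 in T24. In the T24 arrays its mock signals were 528 and 507, and its treated signals 421 (5p strand) and 778 (3p strand). On the miR-140-5p array 72 of 17624 genes had a lower ratio. The size of this value depended on the normalization, since it was −0.34 with median centring, where 7 of the 8 ratios of BBC3 were above 0, and −1.07 with the scanner's own ratio.

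PMAIP1 was highest with bisamide at 24 h. Its ratio was 0.69 (1.61-fold, signals of 586 and 1720) at 24 h and 0.24 at 48 h, and 90 of 19241 genes ranked above it at 24 h. The miRNA arrays gave 0.25 in PC3 and 0.11 in C4-2, and for the 5p and 3p strands −0.19 and −0.21 in 786-O and −0.33 and −0.53 in T24. All 3 PC3 arrays and the C4-2 array were thus above 0, and all 786-O and T24 arrays below it. On the median-centred scale 7 of the 8 ratios were above 0. Of the 4 ratios below 0, that with miR-532-5p stayed so there, at −0.32. The 3p strand in 786-O was at 0.2, and the T24 strands were at 0.3 (5p) and 0.16 (3p). Median centring does not set the median of all measured genes to 0, however. It was 0.17 for that 786-O strand, and 0.35 (5p) and 0.45 (3p) in T24. Both T24 values of PMAIP1 thus lay below the median of their array, and the 786-O value just above. The scanner's own ratio kept all 4 below 0, from −0.63 to −0.21.

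MCL1, the antiapoptotic gene of the group, had its largest ratios with opposite signs in C4-2 and T24. In C4-2 the ratio was −0.46, and in PC3 it was 0.25 and 0.034 with bisamide (24 h and 48 h) and 0.26 with the miRNA. The 5p and 3p strands read 0.18 and −0.069 in 786-O and 0.59 and 0.23 in T24. Its signals were 106 in mock and 97 in treated C4-2 cells, and 352 and 891 with miR-140-5p. Median centring gave −0.1 in C4-2 and 1.22 with miR-140-5p, and the scanner's own ratio gave −0.77 and 0.68. On the latter array, therefore, MCL1 was higher, and BBC3, FAS and PMAIP1 were lower, in the treated channel, except that PMAIP1 was at 0.3 with median centring. With bisamide at 24 h, MCL1, BBC3 and PMAIP1 were all higher.

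The strands of one precursor were compared within a line, although the mocks did not lie equally close together for every member. In 786-O the log2 ratio of PERP was 1.92 higher with miR-532-5p than with miR-532-3p, and that of TNFRSF10D was 0.72 lower (−0.72). The SD of this difference over 14847 genes was 0.31, and the mocks of PERP and TNFRSF10D differed by 0.11 and −0.091 on the log2 scale. When the treated channels were compared directly, the differences were 2.31 for PERP and −0.79 for TNFRSF10D. The other measured members differed by −0.26 to 0.28. For FAS (−0.16) and BBC3 (0.28) the mocks themselves differed by 0.16 and 0.19. Compared directly in the treated channels, FAS differed by −0.029 and BBC3 by 0.57. In T24 TNFRSF10D was 1.0 higher with miR-140-5p than with miR-140-3p, and 1.04 higher when the treated channels were compared directly. BBC3 differed by −0.77, FAS by −0.47, TNFRSF10B by −0.38, MCL1 by 0.37 and PERP by −0.35, against an SD of 0.26 over 16992 genes.

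In the mock channels the 4 lines differed most in TNFSF10. On the log2 scale after quantile normalization, its level was 11.3 in 786-O (2 mock channels), and 5.82 in PC3 (3), 5.88 in C4-2 (1) and 5.78 in T24 (2), none of the latter well above background. TNFRSF10D was highest in C4-2 (8.76), then 786-O (8.17) and T24 (7.56), and not well above background in PC3 (5.76). With scaling to the 75th percentile, the gap between 786-O and T24 shrank from 0.61 to 0.13, so the order of this pair is not settled. In bulk RNA, fewer expressing cells and less RNA per cell cannot be told apart.

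BBC3 ran in the order C4-2 (9.62), T24 (8.91), 786-O (7.75) and PC3 (6.40), with SDs of 0.065 in T24, 0.13 in 786-O and 0.06 in PC3. The C4-2 and T24 levels were 0.71 apart with quantile and 0.18 apart with 75th percentile scaling. PMAIP1 was lowest in C4-2 (7.64) and read 8.85 in PC3 (SD 0.15), 8.83 in T24 and 9.63 in 786-O. On this scale PC3 and T24 differed by less than the PC3 spread. With 75th percentile scaling PC3 and 786-O differed by −0.0061 in place of −0.77, so the gap between these lines depended on the scaling, while C4-2 was lowest on both scales. FAS was dimmest in PC3 (5.98, SD 0.037) and read 6.83 in C4-2, 6.97 in T24 and 7.20 in 786-O. The last 3 lay within 0.38 of each other.

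The levels of TNFRSF10B and PERP in the lines also depended on the scaling. TNFRSF10B was 0.75 lower in PC3 than in C4-2 after quantile normalization and 0.00025 higher after 75th percentile scaling. PERP was at 9.84 in PC3, 10.6 in C4-2, 9.52 in 786-O and 9.59 in T24, and PC3 and C4-2 differed by −0.76 (PC3 minus C4-2) on the first scale and by −0.0052 on the second. MCL1 was highest in T24 (8.42) on both scales. Among members well above background in every mock channel, TNFRSF10A varied least on the quantile-normalized scale, from 6.40 in C4-2 and 6.42 in 786-O to 6.56 in PC3 and 6.67 in T24. Its probe was dim, and the offset shrinks differences between dim levels. C4-2 minus T24 was −0.27 here and −0.37 without background correction.

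**Figure D3:**
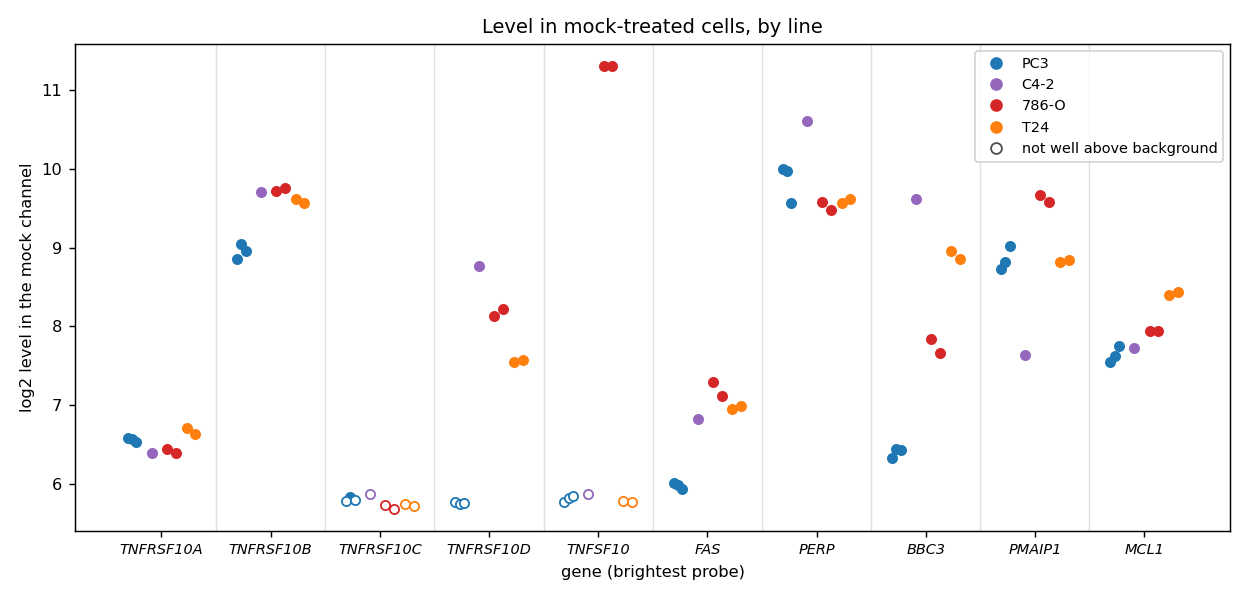
Log2 level of each gene in each mock (Cy3) channel after background correction and quantile normalization, coloured by line (3 channels of PC3, 1 of C4-2, 2 of 786-O and 2 of T24); open circles were not well above background. TNFSF10 stands at 11.3 in 786-O and near background elsewhere, and TNFRSF10D is near background in PC3 alone.

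The probes of the 4 TRAIL receptors lie on chromosome 8. Those of the other members lie at chr3:172223866-172223925 on the minus strand for TNFSF10 (brightest probe), chr10:90774545-90774604 on the plus strand for FAS (brightest probe), chr19:47724174-47724233 on the minus strand for BBC3, chr18:57570691-57570750 on the plus strand for PMAIP1 and chr1:150547622-150547681 on the minus strand for MCL1, all in GRCh37. The files place each probe on a transcript but do not say whether it is coding or untranslated.

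The genes most like PERP and BBC3 over the arrays were found among 12579 genes measured on all 8. For PERP they were DDOST (Pearson r = 0.993), a subunit of the oligosaccharyltransferase, SPCS2 (0.991), a subunit of the signal peptidase complex, and CANX (0.987), the chaperone calnexin. With miR-532-3p these read −1.93, −1.49 and −0.81. On the 7 other arrays they ran from −0.2 to 0.24. Spearman's rho was 0.81 to 0.881. Without the 2 arrays on which PERP was farthest from its median, r over the other 6 was 0.624 to 0.723, so the likeness rests largely on the miR-532-3p array. For BBC3 the most alike genes were GUF1 (0.986), ZNF281 (0.982) and PSMA6 (0.962), which read −0.19, −0.54 and −0.7 with miR-140-5p. Spearman's rho was 0.929 to 0.952, and r over 6 arrays was 0.892 to 0.965. The genes of both members were picked by r over these same arrays, so high values follow from the choice. A high r also does not mean a like level: with bisamide at 24 h PSMA6 read −0.078 and BBC3 0.43.

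**Figure D4:**
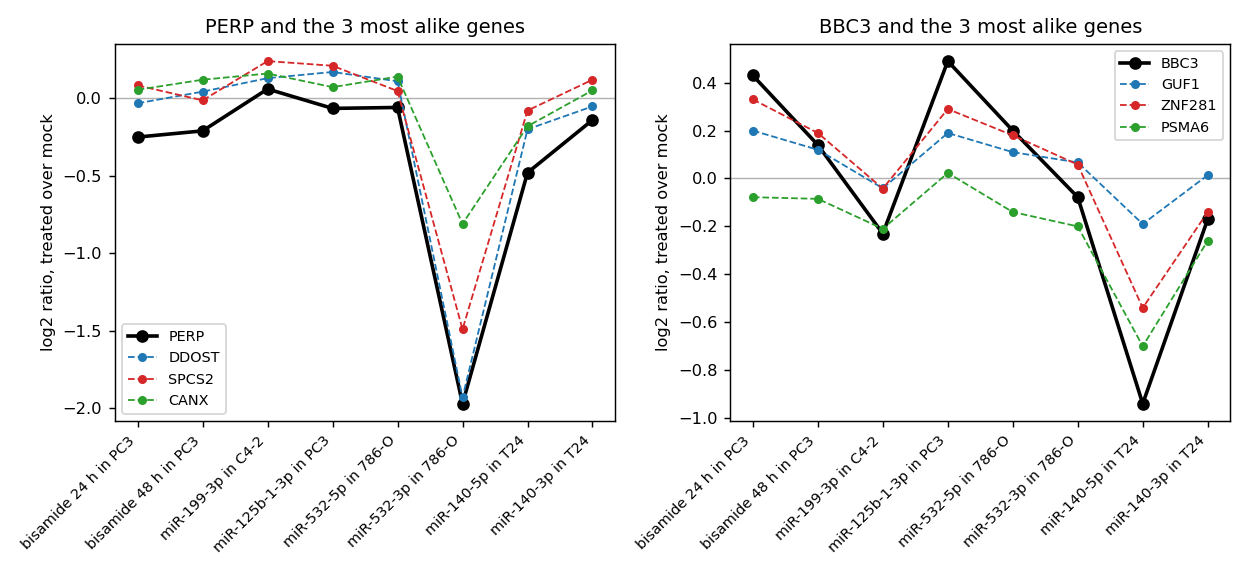
Log2 ratio of PERP (left) and BBC3 (right) with the 3 genes most like each (dashed) on the 8 arrays. DDOST and SPCS2 follow PERP down to −1.93 and −1.49 on the miR-532-3p array, while on the other arrays all 4 lines lie between −0.48 and 0.24.

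Related genes were read from lists of pathway members, without the 10 genes themselves. Of 20 other genes of death receptor signalling, 17 to 19 were measured on an array, and the median ratio was between −0.12 and 0.10 on every array, against −0.00017 to 0.017 over all genes. In 149 measured ratios, 1 was above 1.0 and 1 was below −1.0, the latter on the miR-532-3p array. BIRC3, an inhibitor of apoptosis that NF-κB induces, read 1.31 with miR-125b-1-3p (signals of 79.8 in mock and 380 in treated cells).

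Of 20 other genes of the BCL2 family and the apoptosome, 16 to 20 were measured, with medians of −0.11 to 0.046. In 151 ratios 1 passed 1.0, that of CYCS, which encodes cytochrome c, at −1.61 with miR-532-5p (452 and 107), and it passed 1.5 too. Of 15 genes of desmosomes and their epithelium, 5 to 9 were measured and none of 60 ratios passed 1.0. In 786-O, where PERP was at −1.97 with miR-532-3p, the median of the 5 measured desmosome genes was −0.10 on that array. The 5 were PKP3 (−0.37), PKP4 (−0.24), DSP (−0.1), JUP (0.032) and DSG2 (0.14), which encode plakophilins, desmoplakin, plakoglobin and a desmoglein.

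The 12 genes of the integrated stress response were read because PMAIP1 and TNFRSF10B are known targets of its transcription factors ATF4 and CHOP. With bisamide at 24 h their median was 1.26, all 12 were above 0 and 7 were above 1.0, led by ASNS (2.80), CHAC1 (2.63) and TRIB3 (2.33). At 48 h the median was 0.69 and 4 were above 1.0. PMAIP1 went from 0.69 to 0.24 and TNFRSF10B from 0.40 to 0.21 between the same arrays. With miR-199-3p the list median was −0.52, none was above 0 and 4 were below −1.0, whereas PMAIP1 and TNFRSF10B read 0.11 and 0.15. On the median-centred scale ASNS and TRIB3 were both at −0.38 there, and the list median was 0.044, with 6 of 12 above 0, against 0.3 over all genes. The part of this response in the ratios of PMAIP1 and TNFRSF10B was not tested.

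Among 18 interferon-stimulated genes, a group to which TNFSF10 is also assigned, 16 were measured in 786-O with each strand of miR-532. The medians were −0.062 with miR-532-5p and −0.17 with miR-532-3p, beside 0.71 and 0.49 for TNFSF10. With the scanner's own ratio the list medians were −0.18 and −0.62. With miR-532-3p none of the 16 was above 0, or 6 of 16 with median centring, and ISG15 was at −1.18 (−0.69 with median centring).

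**Figure D5:**
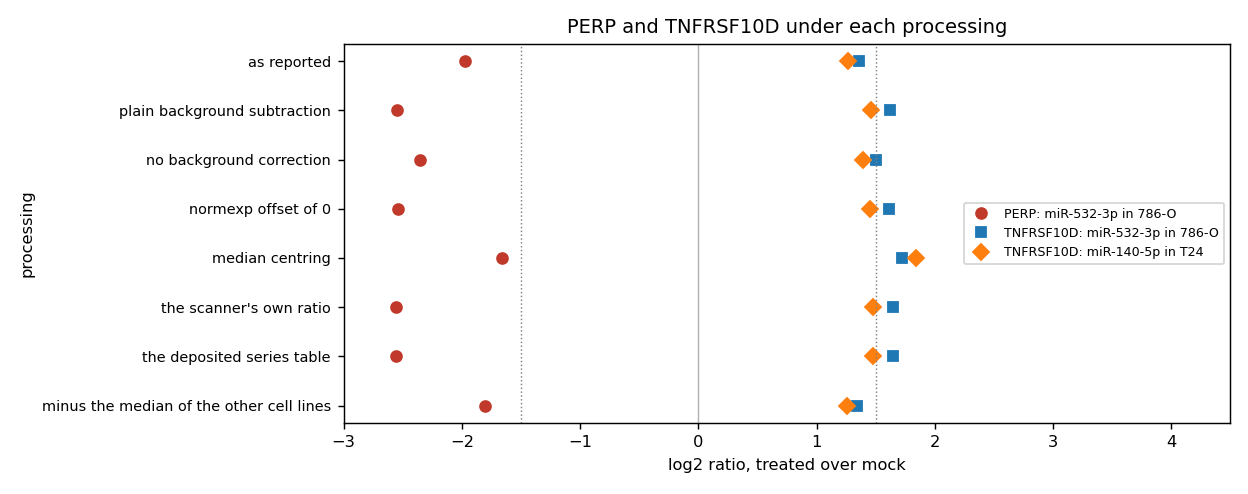
Log2 ratio of PERP with miR-532-3p and of TNFRSF10D with miR-532-3p and miR-140-5p under the processing reported here and each alternative; dotted lines mark −1.5 and 1.5. PERP stays below −1.5 in all, and TNFRSF10D lies on either side of 1.5 depending on the processing.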

How the data were processed

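RNA of treated (Cy5) and mock (Cy3) cells was hybridised to 8 two-colour arrays, 1 per group, grouped by the treatment in the labels. Per the file headers, the authors scanned them with Agilent Feature Extraction 11.5.1.1, and the deposited files hold the mean intensity and local background of each spot. The deposited log10 ratio, held alike by the scanner files and the series table, served as an alternative. Here intensities were corrected by normexp (offset 50) and loess-normalized within each array with limma 3.58.1 in R 4.3.3, giving log2 ratios computed from the deposited intensities. Background correction and the offset shrink ratios of dim probes. Control and outlier spots (126 to 181 per array) were left out, spots of a probe averaged, and a gene represented by its brightest probe. No spot was saturated. The loess fit sets the median ratio of each array near 0. Mock levels were normexp-corrected and quantile-normalized over the Cy3 channels. Median SDs between mock levels of a line were 0.0758 in PC3, 0.0398 in 786-O and 0.0279 in T24, and the labels do not say whether these came from separate cultures. Where a gene was well above background in 1 channel alone, the lower bound on its fold was taken between channel levels (loess, then Aquantile) and is open to dye bias.

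The members and lists were chosen with earlier results of these data known. The named genes are the 10 members, in each list and array at most the 3 largest ratios past 1.0, the 3 genes most like each of the 2 members with the widest range, and the line markers. HMOX1, NF2 and the 5 desmosome genes were named after their values were seen. Results of a few listed genes are not reported here. The p53 list had 22 of 23 symbols on the array. The size of 1.5, which the study applied to lower genes on arrays not analysed here, was used in both directions. With 1 array per group no p-value was computed. The procedure was run on simulated data in which bright spots alone were changed. For the processing reported here, that run required only the right sign of most changes. It therefore does not bear on the size of ratios or on dim probes. Alternatives were other background corrections, median centring, the scanner's ratio, other filters, all probes of a gene, a size of 1.0, and subtraction of other lines' median.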

Additional observations from a re-analysis of the deposited data

How the results depend on the processing

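Of 176 recounts of members past 1.5 on an array, 168 matched the count reported. Most could hardly differ, since 52 of 64 ratios were below 0.5 in size. The scanner's ratio and the series table hold the same values but were recounted separately. The match is therefore no measure of how stable the ratios near 1.5 are. The exceptions concern TNFRSF10D. With miR-532-3p, 1 member was higher past 1.5, in place of 0, with plain background subtraction, a normexp offset of 0, median centring, the scanner's ratio, the series table as deposited and a threshold of 1.0. With miR-140-5p the count was 1 with median centring and with a threshold of 1.0. The ratio of TNFRSF10D with miR-532-3p was 1.62 with plain subtraction, 1.5 without background correction, 1.61 with an offset of 0, 1.72 with median centring and 1.65 with the scanner's ratio or the series table. With miR-140-5p the same settings gave 1.46, 1.39, 1.45, 1.84 and 1.48. PERP with miR-532-3p was at −2.55, −2.35, −2.54, −1.66 and −2.56, and at −1.8 after subtraction of the other lines' median. Compared directly in Cy5, the miR-532 strands differed by 2.31 for PERP and −0.79 for TNFRSF10D. The cause was not tested. Median centring leaves the median of all measured genes at −0.033 to 0.45, and 15 of 64 member ratios changed sign under it. Over all 60 mock differences between lines, 10 of 132 recomputations changed sign. None of 40 did among the 18 differences over 1.0, which were far from 0 to begin with. Their size could still change: PERP in C4-2 minus T24 went from 1.02 to 0.47 with 75th percentile scaling. No paired analysis was possible because no group has a second array. Dim probes limit TNFRSF10A and TNFRSF10C.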

Other observations

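Of 22 other p53 target genes on the array, 19 to 21 were measured, and the list median lay between −0.13 and 0.053 on all 8 arrays. In 157 ratios 2 were below −1.0 and none above 1.0, and both belonged to PLK2, which encodes a polo-like kinase. PLK2 read −1.28 with miR-532-5p (signals of 699 in mock and 238 in treated cells) and −1.79 with miR-140-5p (2050 and 1020). The latter is the array on which BBC3 read −0.94, FAS −0.45 and PERP −0.48, and with median centring PLK2 was at −1.02 there.

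In T24 the interferon-stimulated genes were lower in the treated channel with both strands of miR-140. None of 14 measured genes was above 0 with miR-140-5p and none of 15 with miR-140-3p, and the medians were −0.47 and −0.29. With the scanner's own ratio the medians were −1.29 and −0.99, so their size depended on the processing. IFIT1 read −1.38 and −1.18, and ISG15 −1.28 and −1.05. With median centring ISG15 was at −0.54 and −0.25, and 4 of 14 and 6 of 15 genes were above 0, with list medians of −0.17 and −0.1 against 0.35 and 0.45 over all genes. TNFSF10 was not well above background in either channel of these arrays.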
